A study of Mus musculus with 42 samples.

Results

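The comparison described here is between Gsc-positive and Gsc-negative cells sorted on day 4 (d4) of a differentiation of mouse embryonic stem cells (mESCs) towards anterior definitive endoderm (ADE). It rests on 6 of the 42 arrays of the series, 3 of the d4 G+ population and 3 of the d4 G- population, chosen by their labels and not by any measured value. Both populations came from 1 dual reporter mESC line, named B6, in which GFP reports Gsc and RedStar reports Hhex, and which was differentiated as a monolayer without any inhibitor or vehicle. Cells were separated by flow cytometry on the GFP signal, so that G+ and G- are gates on the reporter and not direct measures of Gsc RNA. All samples are of this line, the replicates are described as 3 independent experiments, and total RNA was labelled for each array. The reference groups used below are the unsorted ESCs kept in medium with LIF (3 arrays) and the G+ and G- cells sorted on d3 of the same untreated differentiation (3 arrays each). Since every sample is a pool of cells, fewer cells of a type and less RNA per cell cannot be told apart in any of the differences below.

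Gsc encodes Goosecoid, a homeodomain transcription factor of the gastrula organiser and of the anterior primitive streak. The primitive streak is the region of the epiblast where cells leave the epithelium and become mesoderm or definitive endoderm, under Nodal, Wnt, FGF and BMP signals. Streak formation is known for the induction of T-box and Mix-type transcription factors, for the loss of the pluripotency network, and for a change from epithelial to mesenchymal adhesion. The gene lists below follow these roles.

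Levels are normalised log2 signals of a probe, and a difference is the mean of the 3 G+ arrays minus the mean of the 3 G- arrays on that scale, with its standard error (SE) and its Benjamini-Hochberg adjusted p from limma. A gene was called where at least 1 probe reached a difference of 1.5 in size with an adjusted p no higher than 0.01. Between 27251 and 39134 probes were well above background on the 6 arrays, and 0 spots were saturated. Distances between arrays over 23052 probes lay between 55.2 and 65.8 within the populations, and between 79.8 and 111.4 across them. G+ replicate 2 was the G+ array nearest to the G- arrays (79.8 to 88.8) and G+ replicate 1 the farthest (100.6 to 111.4).

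Gsc itself followed the sort. Its signal was 11.62, 11.79 and 11.9 on the G+ arrays and 9.67, 8.87 and 9.52 on the G- arrays, with no overlap. The difference was 2.42 (SE 0.47, adjusted p = 0.00101), a 5.35-fold higher signal in G+ cells. The G- cells were not at the level of ESCs, which lay 4.32 lower on the log2 scale (adjusted p = 3.33e-08). Without G- replicate 2 the Gsc difference was 2.18 and its adjusted p 0.0128, above the threshold of 0.01.

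Across the genome, more genes were lower than higher in G+ cells. Of 21308 genes, 181 (0.849%) were called higher and 320 (1.5%) lower in d4 G+ cells, and the median difference over all genes was 0.018. Of those with a symbol, 178 of the higher and 318 of the lower genes moved the same way in all 9 pairs of a G+ and a G- array, which the call on the same arrays largely fixes. Over all genes 14% were higher and 14.3% lower in all 9 pairs. The median level of the higher genes was 10.09, 9.44 and 9.79 on the G+ arrays and 7.94, 7.43 and 7.37 on the G- arrays. That of the lower genes was 6.48, 7.29 and 6.98 against 8.96, 8.96 and 9.02. G+ replicate 2 was thus the G+ array closest to G- cells for both groups of genes. Without G+ replicate 1 the counts were 105 higher and 169 lower.

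Of the slides, 2 held an array of each population. The third replicates lay on a slide each without the other population. On the slide with G+ replicate 2 and G- replicate 1, 181 of the 181 higher genes and 319 of the 320 lower genes had the direction of the whole comparison, with median differences of 1.5 and -1.53. On the slide with G+ replicate 1 and G- replicate 2 the numbers were 180 and 318, with medians of 2.45 and -2.31. Each slide gives 1 of the 9 pairs above, so the call on the same arrays largely fixed these directions. With slide as a fixed block, 177 genes were higher and 297 lower.

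**Figure D1:**
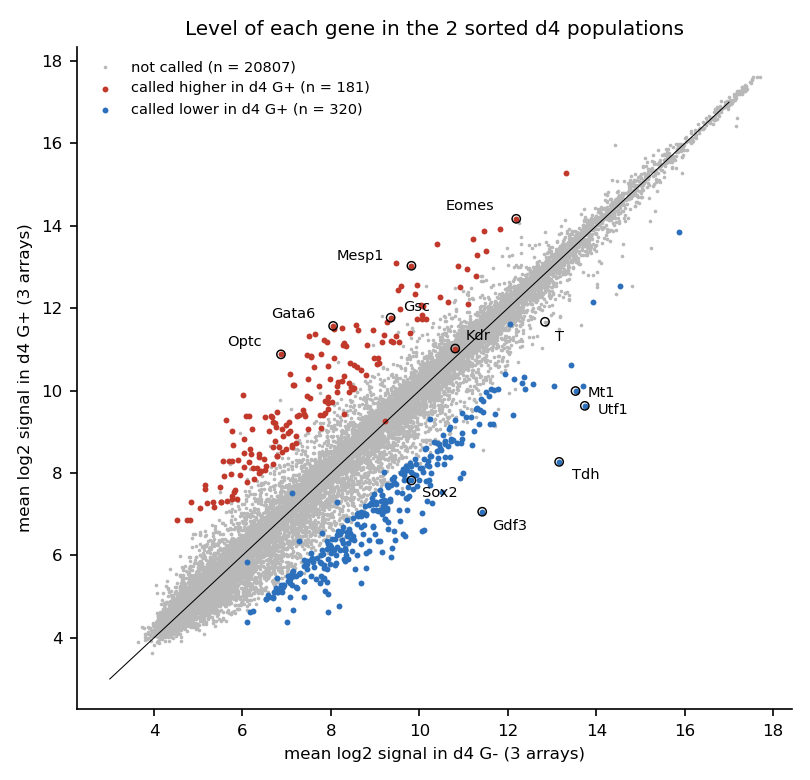
Mean log2 signal of each gene (its brightest probe) in the 3 d4 G- arrays on the horizontal axis and the 3 d4 G+ arrays on the vertical axis, with the line of equal signal. The 181 called higher genes (red) lie above the line and the 320 called lower genes (blue) below it (a few genes called on another probe than the brightest lie close to the line).

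Kdr, Optc, Rgs5, Fgf10 and Lmo1 had the largest called excess in G+ cells. Kdr, the receptor of vascular endothelial growth factor, led them, but its 2 probes disagreed. The called probe read 12.75, 11.87 and 11.63 in G+ cells against 8.99, 7.19 and 7.47 in G- cells, a difference of 4.2 (SE 0.81, adjusted p = 0.000849). The other, which was brighter over all arrays, differed by 0.21 (SE 0.2, adjusted p = 0.844) and stayed between 10.69 and 11.21 on all 6 arrays. The 2 probes therefore give different answers for Kdr. Without G+ replicate 1 neither probe was called.

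Optc, the small leucine-rich proteoglycan opticin, read 10.79, 10.23 and 11.63 in G+ and 7.56, 5.95 and 7.1 in G- cells, a difference of 4.01 (SE 0.61, adjusted p = 4.41e-05). Fgf10, an FGF ligand, read 11.65, 10.89 and 11.42 against 8.35, 6.72 and 7.43, a difference of 3.82 (SE 0.36, adjusted p = 2.32e-08). Gata6, a zinc finger factor of early endoderm and heart, read 11.64, 11.49 and 11.56 against 8.66, 7.84 and 7.66, a difference of 3.51 (SE 0.33, adjusted p = 2.2e-08). For all 3 genes the lowest G+ array lay above the highest G- array by more than 1.5 on the log2 scale. Their selection had required that the populations do not overlap. The others of the 12 with the largest differences were Rgs5, a regulator of G protein signalling (3.86), the LIM-only cofactor Lmo1 (3.74), the semaphorin receptor Plxna4 (3.67), the T-box factor Tbx3 (3.63), Gata4 (3.42), the membrane protein Vstm2b (3.4), the PR-domain factor Prdm6 (3.39) and the SOCS-box protein Asb4 (3.32). The second probes of Plxna4 and Asb4 were not called, with differences of 0.41 and 0.74.

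Tdh, Gdf3, Utf1 and the metallothioneins Mt2 and Mt1 had the largest called deficits in G+ cells. Tdh, the threonine dehydrogenase that mouse ESCs use to feed one-carbon metabolism, read 7.61, 8.96 and 8.24 in G+ and 13.04, 13.41 and 13.05 in G- cells, a difference of -4.89 (SE 0.39, adjusted p = 1.72e-09). Its other probe gave -4.67. Gdf3, a TGF-beta family ligand of pluripotent cells, read 5.84, 7.74 and 7.6 against 10.96, 11.42 and 11.88, a difference of -4.36 (SE 0.52, adjusted p = 1.04e-06), while its dimmer probe gave -1.37 and was not called. Utf1, a chromatin protein of undifferentiated cells, read 8.76, 10.02 and 10.1 against 13.82, 13.46 and 13.92, a difference of -4.11 (SE 0.44, adjusted p = 1.67e-07). G+ replicate 1 was the lowest array for all 3 genes. None of them overlapped between the populations, which their selection had required.

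The metallothioneins Mt1 and Mt2, which bind zinc and other metals, behaved alike. Mt1 read 10.08, 10.51 and 9.39 in G+ cells against 14.43, 13.92 and 12.23 in G- cells (difference -3.54, SE 0.79, adjusted p = 0.00431). Mt2 read 10.09, 10.51 and 9.73 against 14.56, 14.15 and 12.39 (difference -3.59, SE 0.74, adjusted p = 0.00185). Replicate 3 was the lowest array of both populations for both genes, which are similar in sequence, so that their probes may share signal. The calls of both were lost without G+ replicate 1, G+ replicate 3, G- replicate 1 or G- replicate 2, with adjusted p values from 0.0124 to 0.0428.

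Of the others in this group, the ectonucleotidase Enpp3 differed by -3.49, the cholesterol exporter Abcg1 by -3.44, Bmerb1 by -3.41 on the brighter of its 2 called probes, the maternal factor Dppa3 by -3.35 and the tight junction protein Cldn3 by -3.19. The call of Enpp3 was lost without G+ replicate 1, at an adjusted p of 0.0153. Rpl10l and Tcl1, a cofactor of the Akt kinase, were not well above background on any G+ array. With the processing used throughout, Rpl10l was at least 9.86-fold lower and Tcl1 at least 9.12-fold lower in G+ cells. These bounds are measured against the dimmest probes above background and hold for that processing only. The fitted differences were -3.43 and -3.31 (adjusted p = 3.32e-06 and 1.02e-07). Under the alternatives they ranged from -5.71 to -2.31 for Rpl10l and from -6.07 to -2.14 for Tcl1. Rpl10l is a copy of the ribosomal protein gene Rpl10, its second probe gave -1.1 and was not called, and its signal is uncertain for that reason.

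**Figure D2:**
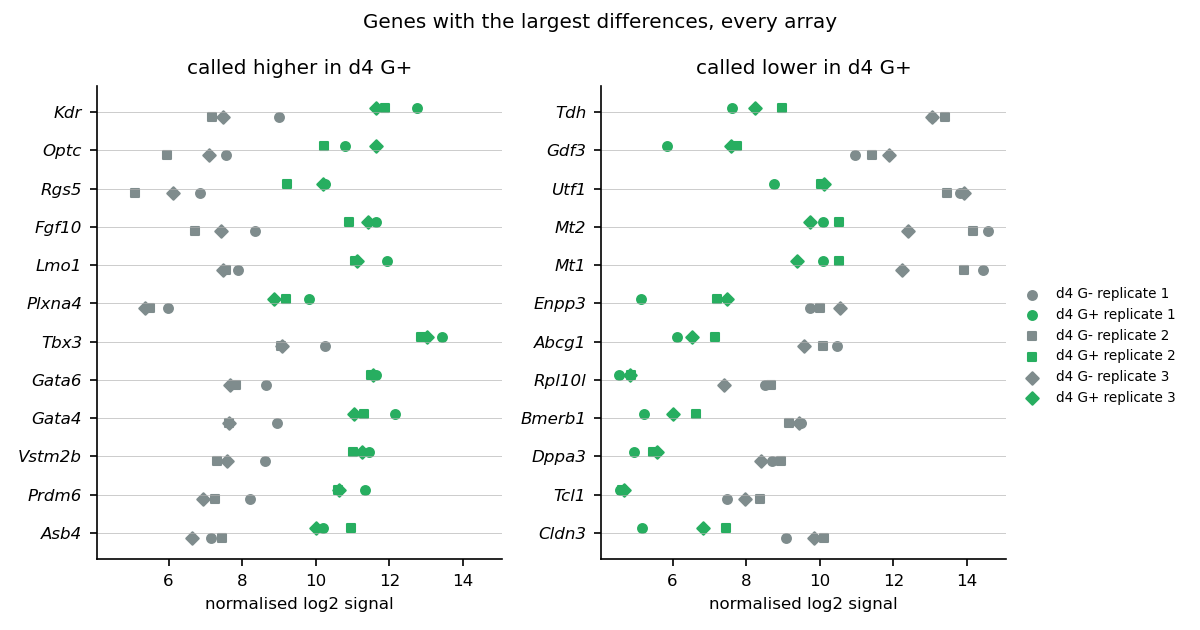
Normalised log2 signal on each of the 6 arrays for the 12 genes with the largest called difference in each direction, with the called probe shown for Kdr. Green symbols are d4 G+ and grey symbols d4 G- arrays, with 1 shape per replicate number, and the rows were chosen so that the populations do not overlap. The called differences run from 4.2 for Kdr to -4.89 for Tdh.

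Transcription factors of the primitive streak and of mesendoderm were in part higher in G+ cells. Of 14 measured, 5 were called higher and 0 lower, with a median difference of 1.09 beside 0.018 over all genes. The called members were Mesp1 (3.21) and Mesp2 (2.18), basic helix-loop-helix factors of nascent mesoderm, the LIM homeodomain factor Lhx1 (2.85), the homeodomain factor Mixl1 (2.73) and the T-box factor Eomes (1.99). Mixl1 read 11.27, 11.05 and 10.91 in G+ cells against 9.07, 8.28 and 7.7 in G- cells (SE 0.34, adjusted p = 1.8e-06). Lhx1 was the most even of them in G+ cells, at 11.13, 11.15 and 11.16, against 8.99, 7.96 and 7.95 in G- cells (SE 0.47, adjusted p = 0.000133). Mesp1 read 13.15, 13.37 and 12.57 against 11.38, 9.35 and 8.73, so that G- replicate 1 stood apart from the other G- arrays. Replicate 1 was also the highest G- array for Mixl1, Lhx1, Mesp2 and Eomes. The call of Mesp1 (SE 0.72, adjusted p = 0.00424) was lost without G+ replicate 1 or 2 or without G- replicate 2 or 3, with adjusted p values from 0.0213 to 0.0527. The calls of Mesp2 and Eomes held whichever array was left out. Under a replicate block over the 6 d4 arrays Mesp1 (adjusted p = 0.0158) and Mesp2 (0.0231) were not called, and over the untreated arrays both were.

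T, or Brachyury, the T-box factor that marks the streak, went the other way from these genes without passing the test. It read 11.04, 12.51 and 11.45 in G+ cells against 12.63, 13.22 and 12.66 in G- cells, lower in all 9 pairs (difference -1.17, SE 0.5, adjusted p = 0.245). T was far above ESCs in both populations, by 5.88 in G- and 4.71 in G+ cells. On d3 the G+ arrays read 13.69, 13.16 and 13.04 and the G- arrays 13.62, 12.61 and 12.75. Cdx2, a posterior homeodomain factor, read 9.56, 11.9 and 10.79 in G+ cells against 11.56, 12.87 and 11.17 in G- cells (difference -1.11, SE 0.72, adjusted p = 0.624), and lay 4.25 above ESCs in G- cells. In both genes G+ replicate 2 was the highest G+ array and G- replicate 2 the highest G- array.

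Genes of definitive and anterior endoderm were divided. Of 20 measured, 7 were called higher and 0 lower, with a median of 0.74. These were Gata6 and Gata4, the Wnt antagonists Dkk1 (2.99) and Sfrp5 (2.68), the chemokine receptor Cxcr4 (2.85), the retinoic acid hydroxylase Cyp26a1 (2.47) and Sox17 (2.35), an HMG-box factor required for definitive endoderm. Sox17 was the least even among G+ arrays, at 9.24, 6.67 and 7.86, while G- cells stayed at 5.75, 5.44 and 5.55 (SE 0.42, adjusted p = 0.000385). Both Sox17 probes were called. Without G+ replicate 1, the highest array, the difference was 1.69 and the adjusted p 0.0139, and with the replicate number as a block over the 6 d4 arrays the adjusted p was 0.0305. Dkk1 lost its call without G+ replicate 1 (adjusted p = 0.0104) or G- replicate 3 (adjusted p = 0.0117).

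Foxa2, the forkhead factor of endoderm and axial mesoderm, did not separate the populations. It read 10.99, 11.74 and 12.25 in G+ cells against 10.71, 10.65 and 11.43 in G- cells, a difference of 0.73 (SE 0.63, adjusted p = 0.812), with 0.68 on its other probe. Like T it was above ESCs in both, by 5.49 in G- and 6.22 in G+ cells. Cer1, a secreted Nodal and BMP antagonist of anterior endoderm, had a difference of 3.02 with an SE of 0.86 and did not pass (adjusted p = 0.0316). Hhex, the second reporter gene of the line and a marker of anterior endoderm, differed by 0.77 without a call. Other members of the list were lower without a call, Trh by -2.27 (adjusted p = 0.0182), Lefty1 by -1.74 (0.143) and Cpm by -1.21 (0.405). The summed linear signal of the list overlapped, at 40000 to 55000 in G+ and 43700 to 61600 in G- cells.

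Mesoderm genes had the largest median of the lists that were higher, 1.46 over 20 measured genes, of which 6 were called higher and 0 lower. Beside Kdr and Tbx3 these were the PDGF receptors Pdgfra (3.3) and Pdgfrb (2.38), the zinc finger repressor Snai1 (1.97) and the T-box factor Tbx20 (2.01). Pdgfra read 10.89, 10.71 and 10.92 in G+ cells against 8.09, 7.59 and 6.96 in G- cells (SE 0.46, adjusted p = 1.09e-05). Tbx3 read 13.44, 12.86 and 13.01 against 10.26, 9.06 and 9.09 (SE 0.71, adjusted p = 0.000995), with an adjusted p of 0.011 when G+ replicate 1 was left out. Factors of lateral and extraembryonic mesoderm had differences of similar size that did not pass, 2.92 for Foxf1 (adjusted p = 0.0154) and 2.53 for Hand1 (adjusted p = 0.0767). Without G+ replicate 1 only 2 members were called, Pdgfra and Snai1. Tbx20 was called on 1 of its 3 probes, and its call was lost whichever array was left out (adjusted p from 0.0118 to 0.0874). Pdgfrb lost its call without G+ replicate 1 (0.0101), G+ replicate 3 (0.0128) or G- replicate 3 (0.0103).

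Of 11 genes of haemato-endothelial mesoderm, 2 were called higher and 0 lower. Etv2, an ETS factor at the head of this lineage, read 10.75, 10.28 and 10.5 in G+ cells against 8.83, 8.34 and 8.89 in G- cells (difference 1.82, SE 0.39, adjusted p = 0.0027), and its 2 probes were both called. Runx1, a factor of blood formation, was called on 1 of 2 probes (2.26, adjusted p = 0.00021), while the brighter one gave 1.79 (adjusted p = 0.0152). With the replicate number as a block the brighter probe passed as well (adjusted p = 0.00278 over the untreated arrays and 0.00367 over the 6 d4 arrays). Tal1, which acts in the same lineage, read 5.09 to 5.73 in G+ and 5.43 to 6.02 in G- cells, near background on several arrays (difference -0.44, adjusted p = 0.499). Gata1 (1.45, adjusted p = 0.00873) met the p threshold just under the size for a call, and Gata2 (1.46, 0.0287) met neither threshold. Tek, Sox18 and Sox7 differed by -0.32, -0.29 and -0.13, and the median of the list was 0.32. The call of Etv2 was lost without G+ replicate 1, G+ replicate 3 or G- replicate 2, at adjusted p values between 0.0122 and 0.0272.

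In the lists of the Nodal, Wnt, FGF, BMP and Notch pathways, the called members were ligands, secreted antagonists, a co-receptor and a feedback inhibitor. Of 18 members of the Nodal pathway, 1 was called higher and 1 lower, with a median of -0.02. Cfc1, or Cryptic, a co-receptor of Nodal, read 11.49, 10.6 and 10.59 in G+ cells against 8.24, 7.66 and 7.44 in G- cells (difference 3.11, SE 0.38, adjusted p = 1.33e-06). The lower member was the ligand Gdf3 described above. Nodal read 11.68, 11.99 and 12.24 against 12.62, 12.62 and 12.96 (difference -0.76, SE 0.21, adjusted p = 0.0255) and met neither threshold. Its partner Gdf1 differed by -0.7 (adjusted p = 0.134), and the second probe of Gdf1 by 0.19. The feedback antagonist Lefty1 differed by -1.74 with an SE of 0.64 (adjusted p = 0.143). In the other direction, Foxh1 (1.25, adjusted p = 0.000349) met the p threshold below the size for a call. Cer1, also in this list, differed by 3.02 without a call (0.0316).

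In the Wnt pathway 3 of 24 members were called higher and 1 lower, with a median of 0.37. All 3 higher members were secreted antagonists, Dkk1, Sfrp5 and Frzb. Frzb read 9.31, 9.56 and 9.28 in G+ cells against 7.41, 8.17 and 6.12 in G- cells (difference 2.15, SE 0.48, adjusted p = 0.00389). The lower member was the ligand Wnt8a, at 7.12, 8.86 and 8.25 against 9.85, 9.97 and 9.35 (difference -1.65, SE 0.39, adjusted p = 0.00644). Wnt3, the ligand that starts the streak, read 11.7, 11.65 and 11.95 against 11.01, 10.57 and 10.54 and did not pass (1.06, SE 0.47, adjusted p = 0.286), and Wnt3a was not well above background on any of the 6 arrays. The target gene Axin2 differed by 0.06, Lef1 by 0.23, Tcf7 by 0.31 and Notum by -0.03. Larger differences without a call were those of Sp5 (1.48, adjusted p = 0.194), Nkd1 (1.45, 0.0403) and Lgr5 (1.37, 0.0159). Fzd7 (1.48, adjusted p = 0.00149) met the p threshold just under the size for a call. Without G+ replicate 1, 1 member was called higher and 0 lower. The call of Frzb was lost in 5 of the 6 fits that left out an array (all but that without G- replicate 2, adjusted p up to 0.0709) and that of Wnt8a in 4 (G+ replicates 1 and 3, G- replicates 1 and 2, adjusted p up to 0.136). Neither was called under a replicate block over the 6 d4 arrays (adjusted p = 0.0222 and 0.0546).

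In the FGF pathway the ligands Fgf10 and Fgf3 were called higher and 0 of 20 members were called lower, with a median of -0.06. Fgf3 read 9.73, 9.26 and 9.14 in G+ cells against 7.01, 5.71 and 5.7 in G- cells (difference 3.24, SE 0.53, adjusted p = 0.000116). Fgf8, a streak ligand, differed by 0.07, and Fgf4 by -1.11 (adjusted p = 0.17). The receptors Fgfr1 and Fgfr2 differed by -0.02 and 0.28, and Fgfr3 by 1.24 without a call (adjusted p = 0.0217). Etv5 (-1.01, adjusted p = 0.00199) met the p threshold below the size for a call. Dusp4 (-1.03, adjusted p = 0.0337) and Spry2 (-0.8, 0.0103) met neither threshold, while Dusp6 differed by -0.19 and Spred1 by 0.48.

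In the BMP pathway Bmp2 was the 1 called member of 17, and 0 were lower, with a median of 0.43. Bmp2 read 11.17, 10.8 and 11.37 in G+ cells against 8.78, 8.13 and 7.9 in G- cells (difference 2.84, SE 0.39, adjusted p = 9.41e-06). Bmp4 read 14.2, 13.8 and 14.18 against 12.25, 12.51 and 12 without overlap, but with an SE of 0.69 over all arrays the difference of 1.81 did not pass (adjusted p = 0.16). Blocked by replicate number it passed over the 6 d4 arrays (adjusted p = 0.00892) and not over the untreated arrays (0.0827). Its second probe was not well above background on any of these arrays. The BMP targets Msx2 (2.64, adjusted p = 0.0108) and Smad6 (2.02, adjusted p = 0.0333) did not pass. Other members were mixed, with Id3 at 1.4 (adjusted p = 0.00223), Id2 at -1.83 (0.151), Id4 at 0.02 and Bambi at 0.1, none called. A replicate block gave 3 members called higher over the untreated arrays and 5 over the d4 arrays. In the Notch pathway 1 of 16 members was called, the target and feedback inhibitor Nrarp (1.6, SE 0.27, adjusted p = 0.000159), and its difference was 1.44 without G+ replicate 3. The ligands Dll1 and Dll3 differed by 0.71 and 0.89 without a call. Hes5 (-1.4, adjusted p = 0.000764), Jag2 (-1.29, 0.00361) and Hey1 (1.25, 0.00425) met the p threshold below the size for a call, in both directions.

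Of 15 epithelial adhesion genes, 7 passed as lower in G+ cells and 0 as higher, with a median of -1.72 beside 0.018 over all genes. Their summed linear signal overlapped, at 74600 to 93700 in G+ and 74700 to 84500 in G- cells. The list holds E-cadherin (Cdh1), claudins and the epithelial regulator Grhl2. Grhl2 read 6.84, 7.51 and 7.43 in G+ cells against 10.39, 10.03 and 10.4 in G- cells (difference -3.01, SE 0.35, adjusted p = 5.86e-07), and its dimmer probe, which gave -1.35, was not called. Cdh1 read 9.35, 10.87 and 10.77 against 12.28, 12.3 and 12.55 (difference -2.04, SE 0.44, adjusted p = 0.00284). Cldn7 differed by -2.41, Cldn6 by -2.19, Cldn4 by -2.15 the polarity gene Crb3 by -1.96, and Cldn3 is the one named above. Epcam read 8.21, 9.1 and 9.53 against 10.32, 10.27 and 11.4 (-1.72, SE 0.48, adjusted p = 0.0292), and with the replicate number as a block passed over the untreated arrays (adjusted p = 0.000451) and not over the 6 d4 arrays (0.0107), where Cdh1 (0.0173) and Cldn7 (0.0106) lost their calls. The simple keratins Krt8 and Krt18 differed by 0.42 and 0.44 and the desmosomal Dsp by 0.52, without a call.

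G+ replicate 1 was the lowest array for Cdh1, Epcam, Grhl2 and the 4 claudins, and without it 2 members of the list were called, as many as without G- replicate 3 and against 3 and 4 without G- replicates 2 and 1. The adjusted p was then 0.0674 for Cdh1, 0.0433 for Cldn7, 0.082 for Cldn6 and 0.0697 for Cldn4. Cdh1 also lost its call without any 1 of the G- arrays (0.0104 to 0.019), Cldn7 without G- replicate 3 (0.0116), Cldn6 without any 1 of the G- arrays or G+ replicate 2 (0.0108 to 0.0552), and Cldn4 whichever array was left out.

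Genes of the mesenchymal state had a median of 1.24, with 2 of 15 called higher, Snai1 and the mesenchymal cadherin Cdh11 (2.96, SE 0.56, adjusted p = 0.000674, on both probes), and 0 lower. Snai1, which represses Cdh1, read 11.92, 12.19 and 12.08 in G+ cells against 10.48, 10.03 and 9.76 in G- cells (SE 0.34, adjusted p = 0.000211). N-cadherin (Cdh2) read 13.73, 13.8 and 13.67 against 12.38, 12.61 and 11.9, and its difference of 1.44 was just under the size for a call (SE 0.21, adjusted p = 3.09e-05). Zeb1 (1.6, adjusted p = 0.0226) and fibronectin Fn1 (1.54, adjusted p = 0.0283) were above that size and missed the p threshold. With the replicate number as a block 4 members were called.

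Receptors and ligands of migration and guidance had 6 of 19 members higher and 1 lower. Cxcr4 read 9.61, 9.2 and 9.24 in G+ cells against 6.96, 6.51 and 6.04 in G- cells (difference 2.85, SE 0.4, adjusted p = 1.56e-05), and the scavenging receptor Ackr3 differed by 2.17 (SE 0.49, adjusted p = 0.00485). Their common ligand Cxcl12 was lower, at 8.68, 10.04 and 9.36 against 10.94, 11.4 and 10.81 (-1.69, SE 0.37, adjusted p = 0.00315). It lay 3.14 above ESCs in G- cells and 1.45 above them in G+ cells. The adhesion protein Flrt3 differed by 1.84, with all 3 probes called, the ephrin receptor Epha4 by 1.63 and the plexin Plxna2 by 1.6. Ackr3 was called only with all arrays or without G+ replicate 2 (adjusted p up to 0.056 without another array). Cxcl12 lost its call without G+ replicate 1 (0.0628), G+ replicate 3 (0.0143), G- replicate 1 (0.0106) or G- replicate 2 (0.0304), and its dimmer probe was not called. Cxcl12 (0.0111), Flrt3 (0.0118) and Col4a2 (0.0133) also missed the threshold under a replicate block over the 6 d4 arrays. Of 15 basement membrane and matrix genes, Col4a1 (1.62, SE 0.35, adjusted p = 0.00275) and Col4a2 (1.77, SE 0.43, adjusted p = 0.00924), the chains of type IV collagen, were higher and 0 lower. Without G+ replicate 1 neither was called (adjusted p = 0.0328 and 0.0854), and the other leave-one-out fits ended the call of Col4a2 in 4 cases (G+ replicate 3 and each G- replicate) and of Col4a1 in 3 (G+ replicate 3, G- replicates 2 and 3).

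**Figure D3:**
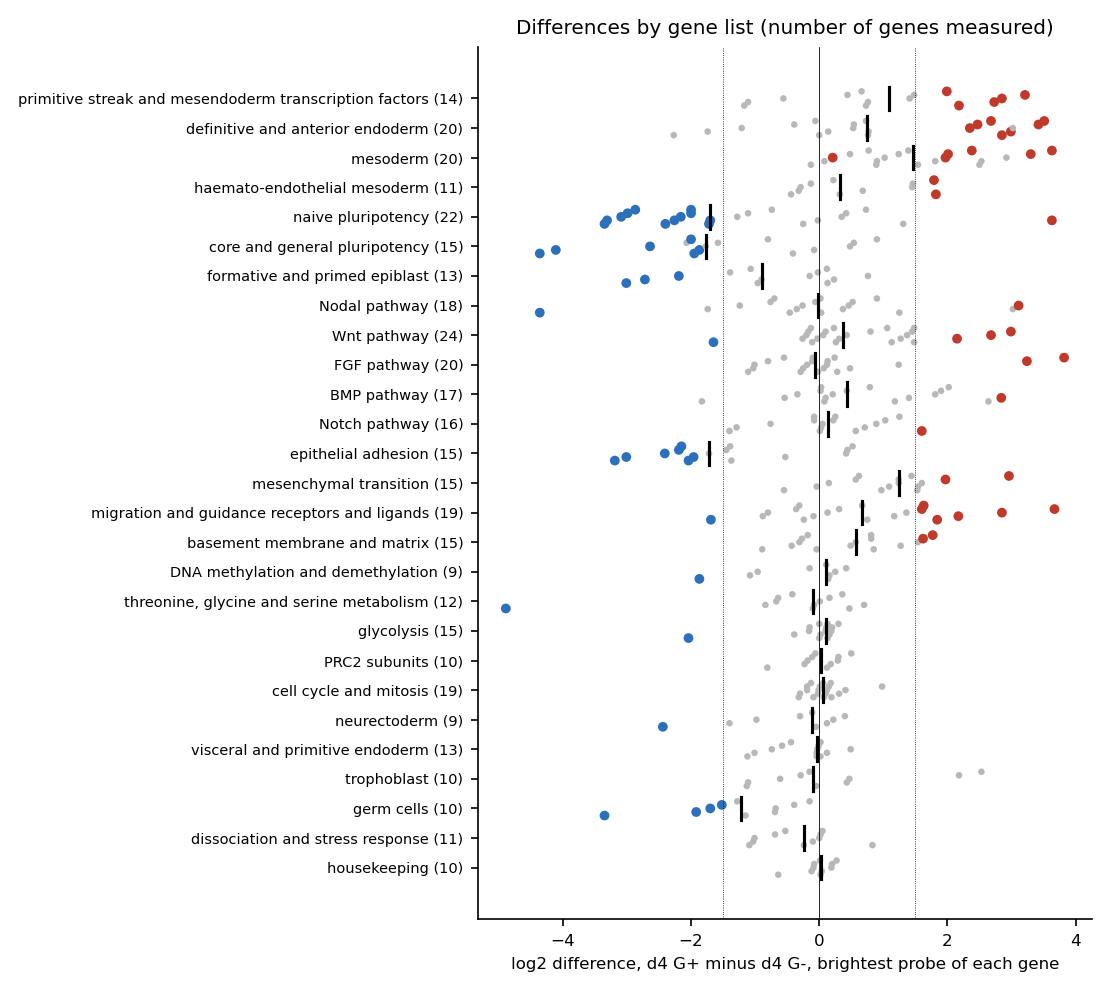
Log2 difference between d4 G+ and d4 G- of each member of 27 gene lists (horizontal axis, brightest probe of a gene), with called higher members in red, called lower members in blue, other members in grey, and the median of each list as a black bar. Dotted lines mark a difference of 1.5 in either direction, and the medians run from -1.77 for general pluripotency to 1.46 for mesoderm.

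Naive pluripotency genes were the list with the most lower members, 12 of 22, with a median of -1.71. Klf2, a Krüppel-like factor, read 6.3, 6.71 and 6.59 in G+ cells against 9.33, 9.97 and 9.55 in G- cells (difference -3.09, SE 0.42, adjusted p = 8.35e-06). Esrrb, an orphan nuclear receptor of the naive network, read 7.52, 7.75 and 7.31 against 10.28, 10.95 and 10.34 (-2.99, SE 0.56, adjusted p = 0.000587). Zfp42, or Rex1, a zinc finger marker of naive cells, read 8.32, 8.64 and 9.01 against 10.43, 10.88 and 10.64 (-2, SE 0.34, adjusted p = 0.000163). The others were Dppa3, Tcl1, Nr5a2 (-2.87), Tfcp2l1 (-2.4), Fbxo15 (-2.26), Manba (-2.16), Dppa5a (-2), Jam2 (-1.72) and Prdm14 (-1.7). Tbx3, which belongs to this list as well as to mesoderm, was the 1 member called higher. In G- cells 17 of the 22 were already called lower than in ESCs, and in G+ cells 18.

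Core and general pluripotency genes had 6 of 15 members lower and 0 higher, with a median of -1.77, Utf1 and Gdf3 among them. Sox2 read 7.16, 8.14 and 8.17 in G+ cells against 9.71, 9.86 and 9.89 in G- cells (difference -2, SE 0.25, adjusted p = 1.8e-06). Dppa4 and Dppa2, adjacent chromatin factors of pluripotent cells, differed by -2.64 and -1.95, though 1 of 3 Dppa4 probes was not called. The DNA methylation cofactor Dnmt3l differed by -1.87, with an adjusted p of 0.0197 when G+ replicate 2 was left out. Pou5f1, which encodes OCT4, read 10.23, 12.51 and 12.04 in G+ cells against 13.65, 13.45 and 13.9 in G- cells (-2.07, SE 0.63, adjusted p = 0.0522). With the replicate number as a block it passed over the untreated arrays (adjusted p = 0.00179) and not over the 6 d4 arrays (0.0612). Its level in G- cells differed from that in ESCs by 0. Nanog differed by -0.8 and Lin28a by 0.48, both without a call.

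Of 13 genes of the formative and primed epiblast, 3 were called lower, the POU factor Pou3f1 (-2.72, SE 0.43, adjusted p = 6.46e-05), Grhl2 and Cldn6. Fgf5, the classical epiblast marker, read 12.33, 12.6 and 13.15 in G+ cells against 12.88, 12.05 and 12.78 in G- cells, overlapping (0.12, SE 0.51), and was 4.4 and 4.52 above ESCs in G- and G+ cells. Otx2 differed by 0.76 without a call. The median of the list was -0.9. Sox3 (-1.07, adjusted p = 0.00195) and Dnmt3b (-0.96, 0.00292) met the p threshold below the size for a call. Epha1 (-1.39, 0.175) and Sall2 (-0.9, 0.0262) met neither threshold, while Lef1 and Fgf15 differed by 0.23 and 0.13. A replicate block over the 6 d4 arrays left Pou3f1 with an adjusted p of 0.01, above the threshold before rounding.

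The promoters of called genes were searched for short motifs of factors named above, in the window from 250 bases before to 50 after the start in RefSeq (GRCm38.p6), on both strands. A promoter was held for 137 of the 181 higher and 237 of the 320 lower genes. The octamer ATTTGCAT bound by POU factors was in 2.92% of the higher and 2.53% of the lower genes, beside 1.97% of all 27025 genes. The KLF site GGGTGTGG was in 5.11% and 5.91% (4.09% of all), the Goosecoid site TAATCC in 2.19% and 8.44% (8.14%), and the GATA site AGATAAG in 2.92% and 1.27% (3.5%). The T-box core TCACACCT was in 1.46% and 0.844% (1.48%), the FOXH1 site AATCCACA in 1.46% and 1.27% (1.01%), and the ESRRB site TCAAGGTCA in 0% and 0% (0.466%). No motif contains another. These shares are descriptions of letters in a window and rest on few genes, 3 for the Goosecoid site in higher genes. The 2 promoters below are shown because both hold the octamer while their genes differed in opposite directions, Zfp42 being lower and Asb4 higher in G+ cells. They are the 250 bases before the start, with the octamer and, in Zfp42, the reverse complement of the KLF site in capitals, at chr8:43307010-43307259 on the minus strand and chr6:5383136-5383385 on the plus strand, the latter being 1 of 2 starts listed for Asb4.
Zfp42: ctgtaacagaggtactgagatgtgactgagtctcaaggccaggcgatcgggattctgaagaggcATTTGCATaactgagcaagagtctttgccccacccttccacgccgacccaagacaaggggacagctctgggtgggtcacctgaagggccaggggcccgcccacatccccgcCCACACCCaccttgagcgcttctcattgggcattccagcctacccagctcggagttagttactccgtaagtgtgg
Asb4: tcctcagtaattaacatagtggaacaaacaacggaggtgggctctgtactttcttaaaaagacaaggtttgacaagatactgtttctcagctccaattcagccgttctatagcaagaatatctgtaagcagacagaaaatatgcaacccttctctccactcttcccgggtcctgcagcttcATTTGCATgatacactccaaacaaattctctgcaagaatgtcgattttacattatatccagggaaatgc
In Zfp42 the octamer begins 186 bases before the start and the KLF site 75, and in Asb4 the octamer begins 69 bases before it.

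Several gene groups held few or no called members. Over all genes 0.849% were called higher and 1.5% lower, so that 0 calls in a list of this size is no trait of the list. Of 10 PRC2 subunits, 0 were called, with a median of 0.03. Ezh2, the methyltransferase, read 11.95, 12.05 and 11.65 in G+ cells against 11.67, 11.65 and 11.45 in G- cells (0.29, SE 0.17, adjusted p = 0.548), and Eed differed by -0.11. Ezh1, the other methyltransferase, met the p threshold below the size for a call (-0.81, adjusted p = 0.00234). Of 19 cell cycle and mitosis genes 0 were called, with a median of 0.06, and Mki67 and Top2a differed by 0.19 and 0.07. Of 9 genes of DNA methylation and demethylation Dnmt3l alone was called, while the demethylation enzyme Tet1 (-1.08, adjusted p = 0.00346) and Dnmt3b (-0.96, adjusted p = 0.00292) met the p threshold below the size for a call, and Dnmt1 and Dnmt3a differed by 0.11 and -0.15. Among 12 genes of threonine, glycine and serine metabolism Tdh was the 1 called member, while Gcat, the enzyme of the next step, read 12.69 to 13.05 in G+ and 12.96 to 13.08 in G- cells (-0.1, SE 0.21). Of 15 glycolysis genes the mitochondrial kinase Pdk1, which restrains pyruvate oxidation, was lower (-2.04, SE 0.44, adjusted p = 0.00284) and the glucose transporters Slc2a1 and Slc2a3 differed by -0.15 and -0.39. The call of Pdk1 was lost without G+ replicate 1 (0.0611), G- replicate 2 (0.0152) or G- replicate 3 (0.0332). Of 10 housekeeping genes 0 were called, and their median was 0.02.

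Markers of other cell types were checked on the same arrays, where 0.849% of all genes were called higher and 1.5% lower. Of 13 visceral and primitive endoderm genes 0 were called, and the defining markers Ttr and Afp were well above background on 0 and 1 of the 6 arrays. The summed linear signal of that list was 4810 to 5910 in G+ cells and 6540 to 10900 in G- cells. Of 10 trophoblast genes 0 were called, with sums of 18100 to 21100 and 20700 to 30700. Elf5 differed by 0.43, and Gata3, which mesoderm also expresses, by 2.18 (adjusted p = 0.0112). Of 9 neurectoderm genes Tubb3, a neuronal tubulin, was the 1 called member (-2.44, SE 0.58, adjusted p = 0.00713), and it lost its call without any array but G+ replicate 2. Sox1 differed by 0.22 and -0.23 on its 2 probes and Pax6 was well above background on 1 of the 6 arrays.

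Germ cell genes had 4 of 10 members lower and 0 higher, with a median of -1.22. These were Dppa3 and Prdm14, which are also in the naive list, Mael (-1.92, SE 0.44, adjusted p = 0.00537), a factor of transposon silencing, and the helicase Ddx4 (-1.52, SE 0.28, adjusted p = 0.000502). Mael did not pass with the replicate number as a block (adjusted p = 0.0141 over the untreated and 0.0105 over the d4 arrays) or in any leave-one-out fit but that without G+ replicate 1. Ddx4 fell below the size for a call without G+ replicate 1 (-1.29), G+ replicate 3 (-1.46) or G- replicate 3 (-1.47), and Prdm14 was called only with all arrays or without G+ replicate 2 or G- replicate 3. Without G+ replicate 3, 1 member of the list was called, and 2 or 3 without any other array. A replicate block over the 6 d4 arrays left 1 called, with Prdm14 at an adjusted p of 0.0118 and Ddx4 at 0.0164.

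Genes of the dissociation and stress response moved with the sort as a sum. The 11 measured genes summed to 25300 to 28500 in G+ cells and 42800 to 54500 in G- cells, with 0 called and a median of -0.24. Hspb1 and Gadd45a differed by -1.09 and -1.01, while Fos differed by 0.83 and Jun by 0. The part of this difference in the gene groups above was not tested.

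Set against ESCs, the G- cells were themselves changed, and the G+ cells more. In G- cells 324 genes (1.52%) were higher and 387 (1.82%) lower than in ESCs, and in G+ cells 678 (3.18%) were higher and 963 (4.52%) lower. These comparisons share the ESC arrays with each other and the d4 arrays with the main comparison, so the values are given side by side. For the 181 genes higher in G+ than in G- cells, the median difference from ESCs was 0.82 in G- and 2.87 in G+ cells, with 47 and 168 called higher. For the 320 lower genes it was -0.4 and -2.37, with 82 and 244 called lower and 20 and 1 called higher.

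The counts by list were as follows, and no test compared the lists. Of the 14 streak and mesendoderm factors, 10 were above ESCs in G- cells and 12 in G+ cells. Of the 20 mesoderm genes the numbers were 5 and 15. Of the 15 epithelial genes 0 were lower than in ESCs in G- cells and 8 in G+ cells. Cdh1 lay 0.06 below ESCs in G- cells and 2.1 below in G+ cells on the log2 scale, Pou3f1 lay 0.53 above and 2.19 below, and Abcg1 0.13 above and 3.31 below.

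**Figure D4:**
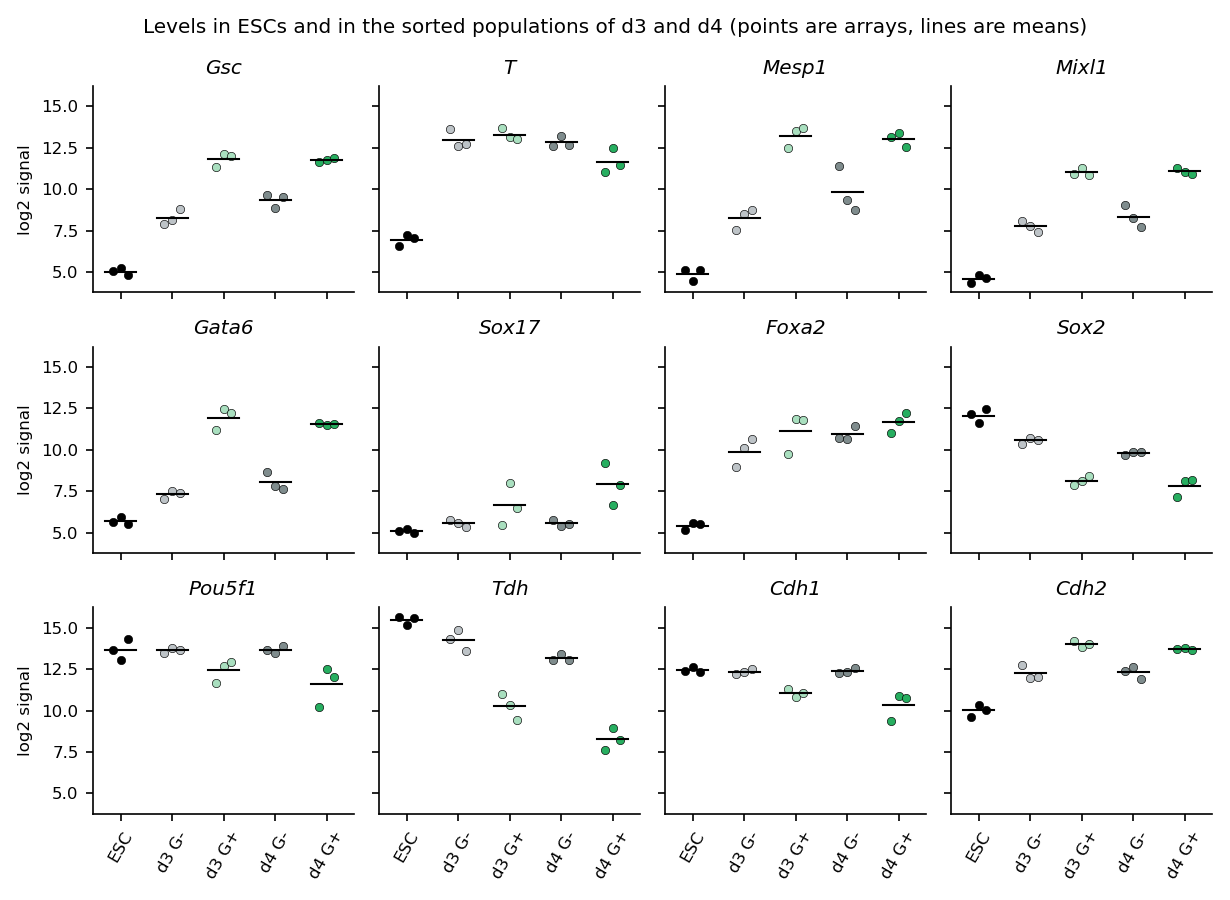
Normalised log2 signal of 12 genes (brightest probe) on each array of ESCs and of the G- and G+ populations of d3 and d4, with points for arrays and lines for means. T and Foxa2 are far above ESCs in all sorted populations, Mesp1, Mixl1 and Gata6 are highest in G+ cells of both days, and in d4 G- cells Cdh1 and Pou5f1 differ from ESCs by -0.06 and 0.

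The difference between G+ and G- cells at d4 was set beside that at d3, which was measured on other arrays. On d3 the G+ cells exceeded G- cells in 155 genes (0.727%) and fell short in 230 (1.08%). Of the 181 genes higher at d4, 106 were also called higher at d3 (58.6% of the d4 list and 68.4% of the d3 list), and 179 had the same sign. Of the 320 lower genes, 160 were called at d3 (50% and 69.6%), and 318 had the same sign. The medians of the higher genes were 2.05 at d4 and 1.79 at d3, and of the lower genes -1.89 and -1.57. The genes were chosen by their d4 values, so that the sizes on the 2 days are not compared. How many of all genes had the same sign on both days was not counted, so the sign counts have no background beside them.

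The test of the difference between the days called 0 genes (0%) in either direction, while 877 genes had an unadjusted p under 0.05 and the smallest adjusted p was 0.0743. The values that follow are therefore descriptions, with no gene shown to differ between the days. Sfrp5 read 5.66, 6.68 and 6.5 in G+ and 6.07, 6.11 and 6.48 in G- cells at d3, and 10.15, 8.36 and 9.54 against 7.15, 6.06 and 6.81 at d4, so that its difference went from 0.06 to 2.68. Sox17 went from 1.08 to 2.35, Flrt3 from 0.79 to 1.84, and Cldn4 from -0.72 to -2.15. Frzb went from 4.05 to 2.15, Mesp1 from 4.96 to 3.21, Gsc from 3.55 to 2.42 and Dnmt3l from -3.35 to -1.87. The epithelial list had 1 member called lower at d3 and 7 at d4, and the naive list 10 and 12.

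**Figure D5:**
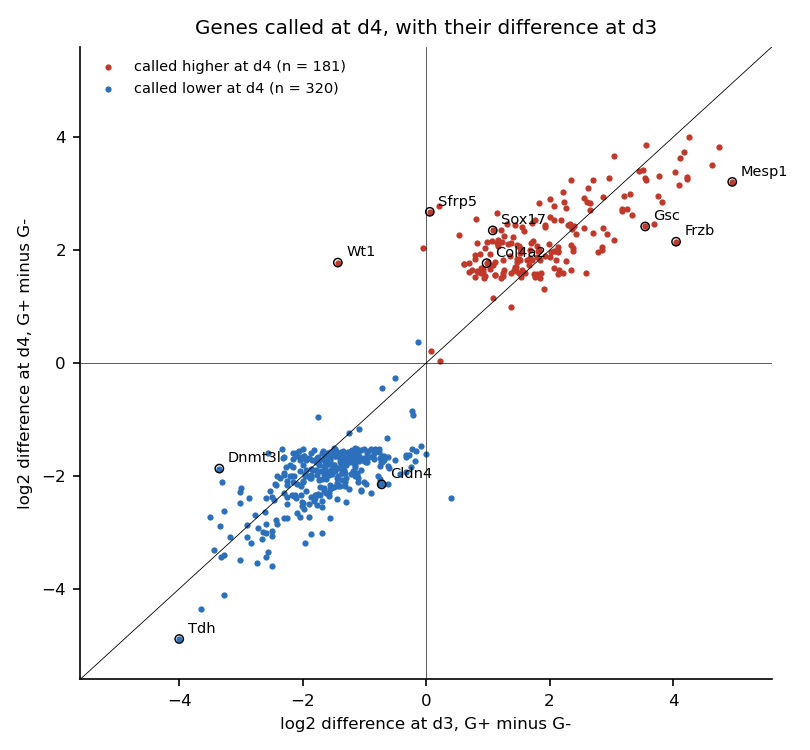
Log2 difference between G+ and G- cells at d3 (horizontal axis) and at d4 (vertical axis) for the 181 genes called higher (red) and 320 called lower (blue) at d4, brightest probe of each gene, with the line of equal difference. Nearly all points lie in the quadrants of equal sign, and Sfrp5 and Wt1 are among the few far from the line.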

How the data were processed

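RNA of the 6 d4 samples was hybridised with 1 dye (Cy3) to an Agilent mouse array of 62976 spots, whose grid was annotated on mm9. The authors deposited scanner intensity values per spot (Feature Extraction 11.0.1.1, with 12.0.1.1 for 9 arrays of treated cells and their controls), and a table of log2 values which, per the methods, the authors had background-corrected and quantile-normalised. From the deposited median intensity values, normexp correction (offset 10), log2, quantile normalisation over 42 arrays and a fit of 1 mean per group were repeated with limma 3.58.1 in R 4.3.3, with Benjamini-Hochberg adjustment over all 55681 probes, of which 28066 carry a RefSeq accession. Genes are RefSeq symbols (GRCm38.p6 table, used for names and promoters), 20957 of 21308 having one. The remaining 27615 probes were not named. Control and outlier-marked spots were left out. A gene is described by the probe brightest over all arrays unless stated. The number of arrays limits precision. The SE and p of a probe use a residual variance pooled over all 42 arrays of 14 groups, and so can differ from the spread of its d4 replicates. The script steps were tested on simulated data.

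Genes named are Gsc, the 12 called genes per direction with the largest change that moved alike in all 9 pairs, and from each list its first 2 members and up to 5 called ones. Others were named after their values were seen. The members compared and the gene lists were chosen with earlier results of these data known. Same-numbered G+ and G- samples deviated together from their group means (correlations 0.283, 0.304 and 0.486), so the replicate number was taken to pair them. Unless stated, the block quoted is fitted over the 33 untreated arrays. Alternatives were other background corrections, scalings, filters, gene units, thresholds, samples in the fit, slide and replicate blocks, and leaving out each array.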

Additional observations from a re-analysis of the deposited data

How the results depend on the processing

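The 70 called named genes, Gsc among them, kept their direction under every alternative, which the call on the same arrays largely fixes. Genes were followed on their brightest probe, which for Kdr and Runx1 was not the called one. Of the 35 named genes without a call, 11 had the other sign within slide 1 and 5 within slide 3 (Cdx2, at -1.11 over all arrays, gave 0.34 and -3.31). The counts of 181 higher and 320 lower genes ranged from 105 to 200 and from 169 to 381 when an array was left out, with the lowest counts without G+ replicate 1. A normexp offset of 50 gave 130 higher and 188 lower genes, 129 and 186 of them shared with the main lists. The cause was not tested. The other alternatives gave 149 to 213 higher and 226 to 438 lower genes, the highest with scaling by the 75th percentile. The Gsc difference ranged from 2.18 to 2.58 when an array was left out, with adjusted p values from 0.0028 to 0.0128, and lost its call without G- replicate 2. Its values were 2.12 and 2.75 within the 2 shared slides. The counts between the days stayed at 0.

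With the replicate number as a block over the untreated arrays there were 197 higher and 327 lower genes, and Gsc kept its call (2.42, adjusted p = 0.000371). Beyond the calls given in the report, this block changed no call of a named gene. With the block over the 6 d4 arrays there were 179 higher and 247 lower genes and 14 of 68 named calls were lost (Cdh1, Cldn7, Col4a2, Cxcl12, Ddx4, Flrt3, Frzb, Mael, Mesp1, Mesp2, Pou3f1, Prdm14, Sox17 and Wnt8a, with adjusted p values from 0.01 to 0.0546), beside 19 lost in those 6 arrays without a block. The lists then held 10 called mesoderm, 5 BMP, 3 streak and 1 germ cell genes. With slide as a fixed block 9 named calls were lost, those of Etv2, Cxcl12, Col4a2, Mael, Ddx4, Mesp1, Frzb, Wnt8a and Tubb3.

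Of the 68 named genes called on their brightest probe, 33 kept the call in all 17 alternatives with a test. With the processing used throughout, probes not well above background bound the folds of Rpl10l and Tcl1 and of 20 lower genes in all.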

Other observations

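The gene nearest to the threshold in the test of d4 against d3 was Wt1, a zinc finger factor of mesothelium and kidney, chosen here after its values were seen. At d3 it read 7.32, 7.46 and 7.02 in G+ cells against 8.53, 8.73 and 8.81 in G- cells, and at d4 10.57, 9.65 and 10.34 in G+ cells against 8.74, 8.04 and 8.47 in G- cells. The G+ arrays thus lay below all G- arrays at d3 and above them at d4. The difference was -1.43 at d3 and 1.78 at d4, and the change between them was 3.2 (SE 0.54, adjusted p = 0.0743 by limma), which did not pass.

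Probes without a RefSeq accession held further differences. Of 27615 such probes, 21 were higher and 52 lower in G+ cells at the same thresholds. They are not named here.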
